A study of Mus musculus with 3 samples.

Results

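The genes described here are 7 secreted or membrane-bound proteins that cut the matrix between cells, or block that cutting: the matrix metalloproteinases Mmp2, Mmp3 and Mmp14, the tissue inhibitors Timp1, Timp2 and Timp3, and the related protease Adamts1. They were chosen by gene symbol, and all 7 were found among the 32285 genes of the files. Their counts of unique molecular identifiers (UMIs, each standing for 1 captured transcript) were summed by cell class in 3 single-cell libraries of mouse back skin. The study asked what loss of Piezo1, a mechanically gated ion channel, does to skin. The control library came from a K5-Cre-er/Piezo1fl/+/Tdfl/+ mouse at postnatal day 62, which still has 1 unfloxed Piezo1 allele. The 2-week knockout was K5-Cre-er/Piezo1fl/fl/Tdfl/+ at postnatal day 62, and the 3-week knockout was K5-Cre-er/Piezo1fl/fl/Tdfl/fl at postnatal day 71. All 3 groups were C57BL/6 and received tamoxifen from day 48 to day 52. The K5 driver acts in the epithelium, so fibroblasts and other dermal cells are not targeted by it. There was 1 library per group and no replicate, the number of mice behind each is not given in the sources used here, and the 3-week knockout has no control of its own age or Td genotype. Effects of genotype, age, Td alleles and library on that sample cannot be told apart. No test between groups was possible, and every interval below covers counting error only.

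Matrix metalloproteinases are zinc enzymes made as inactive proforms. Mmp14 sits in the plasma membrane, where a complex with Timp2 binds and activates pro-Mmp2, so an inhibitor is also part of an activating step. Mmp3, or stromelysin, cuts proteoglycans, laminin and fibronectin and activates other metalloproteinases, and its transcript is known to be induced through AP-1, the dimer of Fos and Jun proteins. Timp3 binds to the matrix and, besides metalloproteinases, inhibits Adam and Adamts enzymes. Adamts1 cleaves the proteoglycans versican and aggrecan. In skin these genes are best known from fibroblasts, from wound edges and from the cycling hair follicle.

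The libraries held 5621 control, 11144 2-week and 11186 3-week barcodes with 62967542, 97960352 and 118610125 UMIs, of which 4912, 9585 and 9599 cells were kept. Their median depth was 9989, 7506 and 8768 UMIs per cell. Between 17 and 29 barcodes were shared by any pair of libraries. The cells formed 33 clusters, named only by marker likeness and clustered without the 7 genes. The fibroblast-like class had all 8 of its markers above 10 CPM (UMIs of the gene per 1000000 UMIs of the class) in each library, but held 314, 50 and 580 cells, so the 2-week knockout gave a level for it and no ratio. A separate stromal cluster led by Coch, Apod and Fmod held 130, 113 and 229 cells. It carried the fibroblast markers at a lower level together with keratin UMIs, and was left unnamed. Piezo1, whose 3' reads need not cover the deleted part and so are a weak check, stood at 33.9, 22.6 and 15.2 CPM in basal keratinocyte-like cells and at 76.7, 46.5 and 23.8 CPM in bulge keratinocyte-like cells. In fibroblast-like cells, which the driver does not target, it stood at 63.8, 56.3 and 44 CPM. The control and 3-week intervals did not meet there either (55.3 to 73.2 and 37.6 to 51.2). The lower epithelial values are thus not particular to the targeted cells.

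Mmp3 lies at chr9:7445822-7455975 on the forward strand of GRCm38, in a 0.43 Mb stretch that holds 10 metalloproteinase genes, Mmp10 and Mmp13 among them. The bases just before the start of these 3 genes are shown because their transcripts were low together in basal keratinocytes of the 3-week knockout. They were taken from RefSeq (build GRCm38.p6) and run 5′ to 3′ on the forward strand, ending at the last base before the annotated start. Capitals mark the AP-1 motif (TGAGTCA, or TGACTCA as its reverse complement) and the motif TATAAA, searched on both strands.
Mmp3, chr9:7445692-7445821: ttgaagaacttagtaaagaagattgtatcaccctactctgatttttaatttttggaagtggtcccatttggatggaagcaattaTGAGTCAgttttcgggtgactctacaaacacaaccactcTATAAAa
Mmp10, chr9:7502212-7502341: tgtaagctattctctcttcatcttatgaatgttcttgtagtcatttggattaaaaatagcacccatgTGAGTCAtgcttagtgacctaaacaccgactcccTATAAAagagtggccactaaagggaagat
Mmp13, chr9:7272384-7272513: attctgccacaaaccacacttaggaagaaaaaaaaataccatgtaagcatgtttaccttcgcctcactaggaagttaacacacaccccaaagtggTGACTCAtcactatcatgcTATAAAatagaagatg
Each holds 1 AP-1 match and 1 TATAAA match, with the AP-1 match starting 46, 63 and 35 bases before the annotated start. Over the 250 bases before the start, 4.46% of the 32851 promoters in the table held the AP-1 letters, 12.4% held TATAAA and 0.721% held both. Mmp2 had no entry there, and the RefSeq starts of Timp2 and Timp3 lie inside the gene spans given below. The table had entries for Mmp14, Timp1, Timp2, Timp3 and Adamts1 as well, which had no AP-1 match in that window. Adamts1 alone of these 5 had a TATAAA match, as shown by its last bases.
Adamts1, chr16:85803114-85803243, reverse strand: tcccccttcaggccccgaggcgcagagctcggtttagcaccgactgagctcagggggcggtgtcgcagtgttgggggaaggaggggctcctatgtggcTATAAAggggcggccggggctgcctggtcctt
A match describes the letters and not a bound site, and the absence of a match says nothing about the factor.

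Mmp2 (chr8:92827291-92853420), the gelatinase, was the member most restricted to fibroblasts. In the fibroblast-like class it stood at 886 CPM in the control, 1136 CPM in the 2-week and 996 CPM in the 3-week knockout. Such levels were also set side by side between genes, though capture may differ from gene to gene and the intron setting is not stated. The Coch, Apod and Fmod cluster came next, at 461, 268 and 368 CPM, a range that did not meet that of the fibroblasts. No other class reached 100 CPM in any library. Bulge keratinocyte-like cells held 44.95, 36.9 and 63.3 CPM, or 5.07%, 3.25% and 6.36% of the fibroblast level. The 5 fibroblast genes summed as a gauge of free RNA (Col1a1, Col1a2, Col3a1, Dcn and Lum) stood in those bulge cells at 0.105%, 0.0588% and 0.108% of their fibroblast level. Within the bulge class Mmp2 was uneven. The main cluster, led by Krt24, Pdzrn4 and Postn, had 50.8, 41.3 and 73.9 CPM, while the cluster led by Fgf18, Ramp1 and Sncg had 0, 0 and 1 UMI.

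Mmp14 (chr14:54431612-54445364), the membrane-bound activator of Mmp2, shared this order at the top and was broader below it. Its fibroblast-like level was 658, 485 and 543 CPM and its level in the Coch, Apod and Fmod cluster 368, 325 and 265 CPM. Dermal papilla or sheath-like cells followed at 83.1, 69.1 and 67.7 CPM. Cycling, melanocyte-like, bulge-like and basal-like cells then lay together, with means over the libraries from 50.3 to 59.7 CPM, and from the melanocytes down each overlapped the class above. Cells thinned to 2000 UMIs showed how often the activating trio met: 51.6% of 312 control, 52.1% of 48 2-week and 51.1% of 562 3-week fibroblast-like cells had UMIs of Mmp2, Mmp14 and Timp2 at once, leaving out 2, 2 and 18 shallower cells. Without thinning the shares were 93.3%, 86% and 86.4%. The same share was 13.8%, 13.2% and 12.3% in the Coch, Apod and Fmod cluster and at most 1.47% in Schwann-like, papilla-like, bulge-like or basal-like cells. None of 193, 81 and 272 T or natural killer-like cells had all 3, which allows shares of up to 1.89%, 4.45% and 1.35%.

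**Figure D1:**
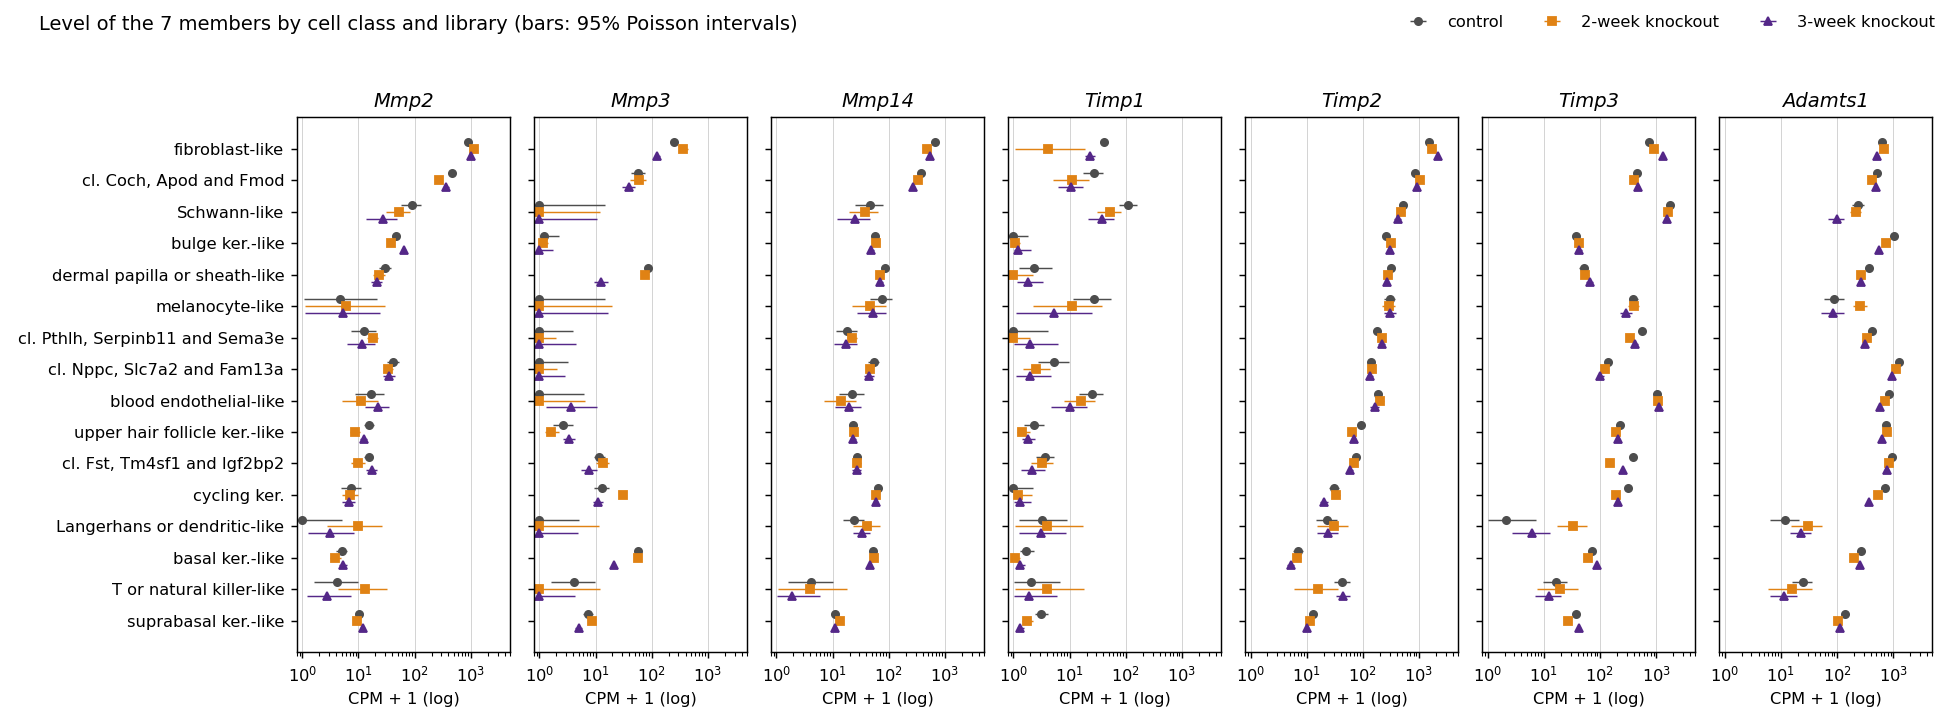
Level of each gene on a log axis of CPM + 1, for the 16 classes with at least 20 cells in every library; symbols are libraries and bars are exact Poisson 95% intervals. Mmp2, Mmp14 and Timp2 are highest in fibroblast-like cells, Timp3 in Schwann-like cells among these classes, and Adamts1 runs across epithelium, vessels and stroma.

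Mmp3 was a gene of few classes and, within them, of few cells. Fibroblast-like cells held 247, 363 and 125 CPM. Papilla-like cells held 85.7, 73.6 and 11.7 CPM, the Coch, Apod and Fmod cluster 56.4, 57.3 and 37.7 CPM, and basal keratinocyte-like cells 56.0, 56.4 and 19.98 CPM. These last 3 classes overlapped in range. Bulge keratinocyte-like cells, the most numerous class of the 2-week library, held 1, 3 and 0 Mmp3 UMIs in all. Schwann-like and melanocyte-like cells held none in any library.
Few cells carried the Mmp3 signal. In the control, 112 of 314 fibroblast-like cells, 21 of 411 papilla-like cells and 98 of 778 basal-like cells had any Mmp3 UMI, and 50% of the UMIs lay in 12, 4 and 9 of them. The highest cells held 45, 38 and 67 Mmp3 UMIs. Since UMIs cluster in cells, the counting intervals of Mmp3 are narrower than its spread from cell to cell. Papilla-like cells with Mmp3 kept the papilla markers: the 7 markers summed to 6724, 8535 and 6718 CPM in cells with Mmp3 and to 7505, 6639 and 7147 CPM in cells without. The 5 fibroblast genes stood at 435, 255 and 357 CPM in the papilla-like cells with Mmp3, against 94740, 82853 and 63346 CPM in fibroblast-like cells. The 8 basal keratinocyte markers were uneven: they summed to 1429, 410 and 393 CPM in papilla-like cells with Mmp3 and to 241, 536 and 463 CPM in those without. They were thus higher beside Mmp3 in the control and lower in both knockouts, and their part in the Mmp3 values was not tested. Thinned to 2000 UMIs, 14.7%, 16.7% and 10.3% of fibroblast-like cells had an Mmp3 UMI, beside 0 of 193, 81 and 272 T or natural killer-like cells.

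Adamts1 (chr16:85793827-85803113) was the most widely spread of the 4 proteases. It was highest in pericyte or vascular smooth muscle-like cells, at 1716 CPM in 42 control cells and 2132 CPM in 48 3-week cells. Next came the epithelial cluster led by Nppc, Slc7a2 and Fam13a at 1243, 1106 and 967 CPM, a range below that of the pericytes. From there down to the 10th class each range overlapped the class above it: the cluster led by Fst, Tm4sf1 and Igf2bp2 (970, 832 and 760 CPM), bulge-like (1023, 753 and 552 CPM), upper hair follicle-like (755, 787 and 635 CPM), blood endothelial-like (850, 707 and 576 CPM) and fibroblast-like cells (635, 691 and 521 CPM) among them. Epidermis was lower, at 261, 197 and 252 CPM in basal-like and 137, 103 and 112 CPM in suprabasal keratinocyte-like cells. T or natural killer-like cells, at 23.5, 15.1 and 10.5 CPM, mark the low end.

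Timp2, the inhibitor that also serves Mmp14, followed Mmp2 into the stroma but reached further. It stood at 1527, 1727 and 2199 CPM in fibroblast-like cells and 863, 1043 and 933 CPM in the Coch, Apod and Fmod cluster. Lymphatic endothelial-like cells came next at 739 CPM, from the 3-week library only. Schwann-like cells had 524, 474 and 413 CPM and melanocyte-like cells 300, 289 and 304 CPM. Within the epithelium it separated hair follicle from epidermis. Bulge-like cells held 262, 316 and 307 CPM, and basal-like cells 5.92, 5.67 and 4.17 CPM, below the 41.9, 15.1 and 43.1 CPM of T or natural killer-like cells. The gene at chr11:118301069-118355740 overlaps Cep295nl on the same strand, which held 129, 122 and 136 UMIs beside 10093, 11584 and 15523 of Timp2, so a small part of the reads could belong to either.

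Timp3, the matrix-bound inhibitor, had its highest levels outside the fibroblasts. Lymphatic endothelial-like cells held 2587 CPM in the 3-week library, the only library with at least 20 of them. Schwann-like cells held 1743, 1640 and 1584 CPM, and both of their clusters did so, at 1751, 1612 and 1662 CPM and at 1736, 1691 and 1344 CPM. Blood endothelial-like cells held 1030, 1099 and 1145 CPM, overlapping fibroblast-like cells at 735, 898 and 1351 CPM. Papilla-like cells, which had Timp2 at 311, 276 and 268 CPM, had Timp3 at only 50.9, 53.4 and 64.2 CPM. Among whole epithelial classes Timp3 had its highest mean in the cluster led by Pthlh, Serpinb11 and Sema3e, at 568, 347 and 427 CPM, and low in bulge-like cells, at 36.3, 41.9 and 41.6 CPM. Timp3 at chr10:86300372-86349506 lies inside Syn3 on the opposite strand. Syn3 held 265, 448 and 482 UMIs beside 12748, 10238 and 19655 of Timp3, and the sources used here do not state a strand setting.

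Timp1 (chrX:20870166-20874735) was scarce, with 294, 81 and 183 UMIs in all kept cells of the 3 libraries. It also lies inside a gene of the opposite strand, Syn1, which held 8, 3 and 6 UMIs. Its highest level was in Schwann-like cells, at 110, 51.3 and 36.8 CPM from 29, 17 and 14 UMIs. All of those UMIs came from the cluster led by Apod, Scn7a and Kcna1, at 203, 146 and 149 CPM. The other Schwann-like cluster had 0 UMIs in 39, 86 and 112 cells. Fibroblast-like cells had 39.7, 3.13 and 22.1 CPM of Timp1, the 2-week value resting on 1 UMI. In no class with at least 100 cells in both libraries compared did Timp1 reach 50 CPM, the level asked for in the comparisons below.

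Across the 16 classes with at least 20 cells in each library, the genes most like each member were sought by Pearson's r of log2(CPM + 5), averaged over the libraries, among 7411 genes. The classes share libraries and depth, so these values describe and are not tested. Mmp2 was most like Col1a1 (r = 0.956), Fkbp10 and Col1a2 (both 0.952), the collagen chains and a collagen-folding protein. Mmp3 was most like Wnt5a (0.966), Thbs2 (0.934) and Ccdc80 (0.932), and Mmp14 like Ubtd2 (0.885), Nbl1 (0.863) and Kdelr2 (0.859). Timp2 was most like Dact1 (0.933), Ugdh (0.921) and Col5a2 (0.920), Timp1 like Deptor (0.918), Enpp4 (0.909) and Il16 (0.907), and Adamts1 like Nuak1 (0.897), Ryk (0.895) and Yap1 (0.894). The gene most like Timp3 was its overlapping partner Syn3 (0.956), ahead of Nfia (0.859) and Mpdz (0.852). Among the members themselves the highest values were Mmp2 with Timp2 (0.806), Mmp2 with Mmp14 (0.799) and Mmp3 with Mmp14 (0.752), and the lowest Timp1 with Adamts1 (0.00372).

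The knockouts were then set against the control within the 11 classes that had a ranked member and at least 100 cells in both libraries compared. Both knockouts share that 1 control library. A gene counted as ranked with at least 50 UMIs over both libraries and 50 CPM in at least 1, and as past the fold at a 1.5-fold ratio after adding 5 CPM to each side. At 2 weeks 10 of these classes could be compared, and 4 had a ranked member past that fold, always downward. It was Mmp2 in the Coch, Apod and Fmod cluster. In cycling keratinocytes, the Fst, Tm4sf1 and Igf2bp2 cluster and the Pthlh, Serpinb11 and Sema3e cluster it was Timp3. Among all ranked genes, too, more were lower than higher past the fold in each of these 10 classes. Those shares were 2.17% and 1.79% in the cluster led by Fst and 9.98% and 9.64% in that led by Coch, and are given by class below. At 3 weeks Mmp3 was lower past the fold in fibroblast-like, papilla-like and basal-like cells, and Adamts1 in bulge-like cells and cycling keratinocytes. Timp3 was lower past the fold in the Fst, Tm4sf1 and Igf2bp2 cluster and higher in fibroblast-like cells. Where a library's scaling matters, the median of all ranked genes was shifted by -0.11 in papilla-like cells at 2 weeks and, at 3 weeks, by -0.13, -0.11 and -0.11 in bulge-like, basal-like and upper hair follicle-like cells, by -0.16 and -0.11 in the clusters led by Fst and by Pthlh, and by 0.12 in fibroblast-like cells (log2).

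**Figure D2:**
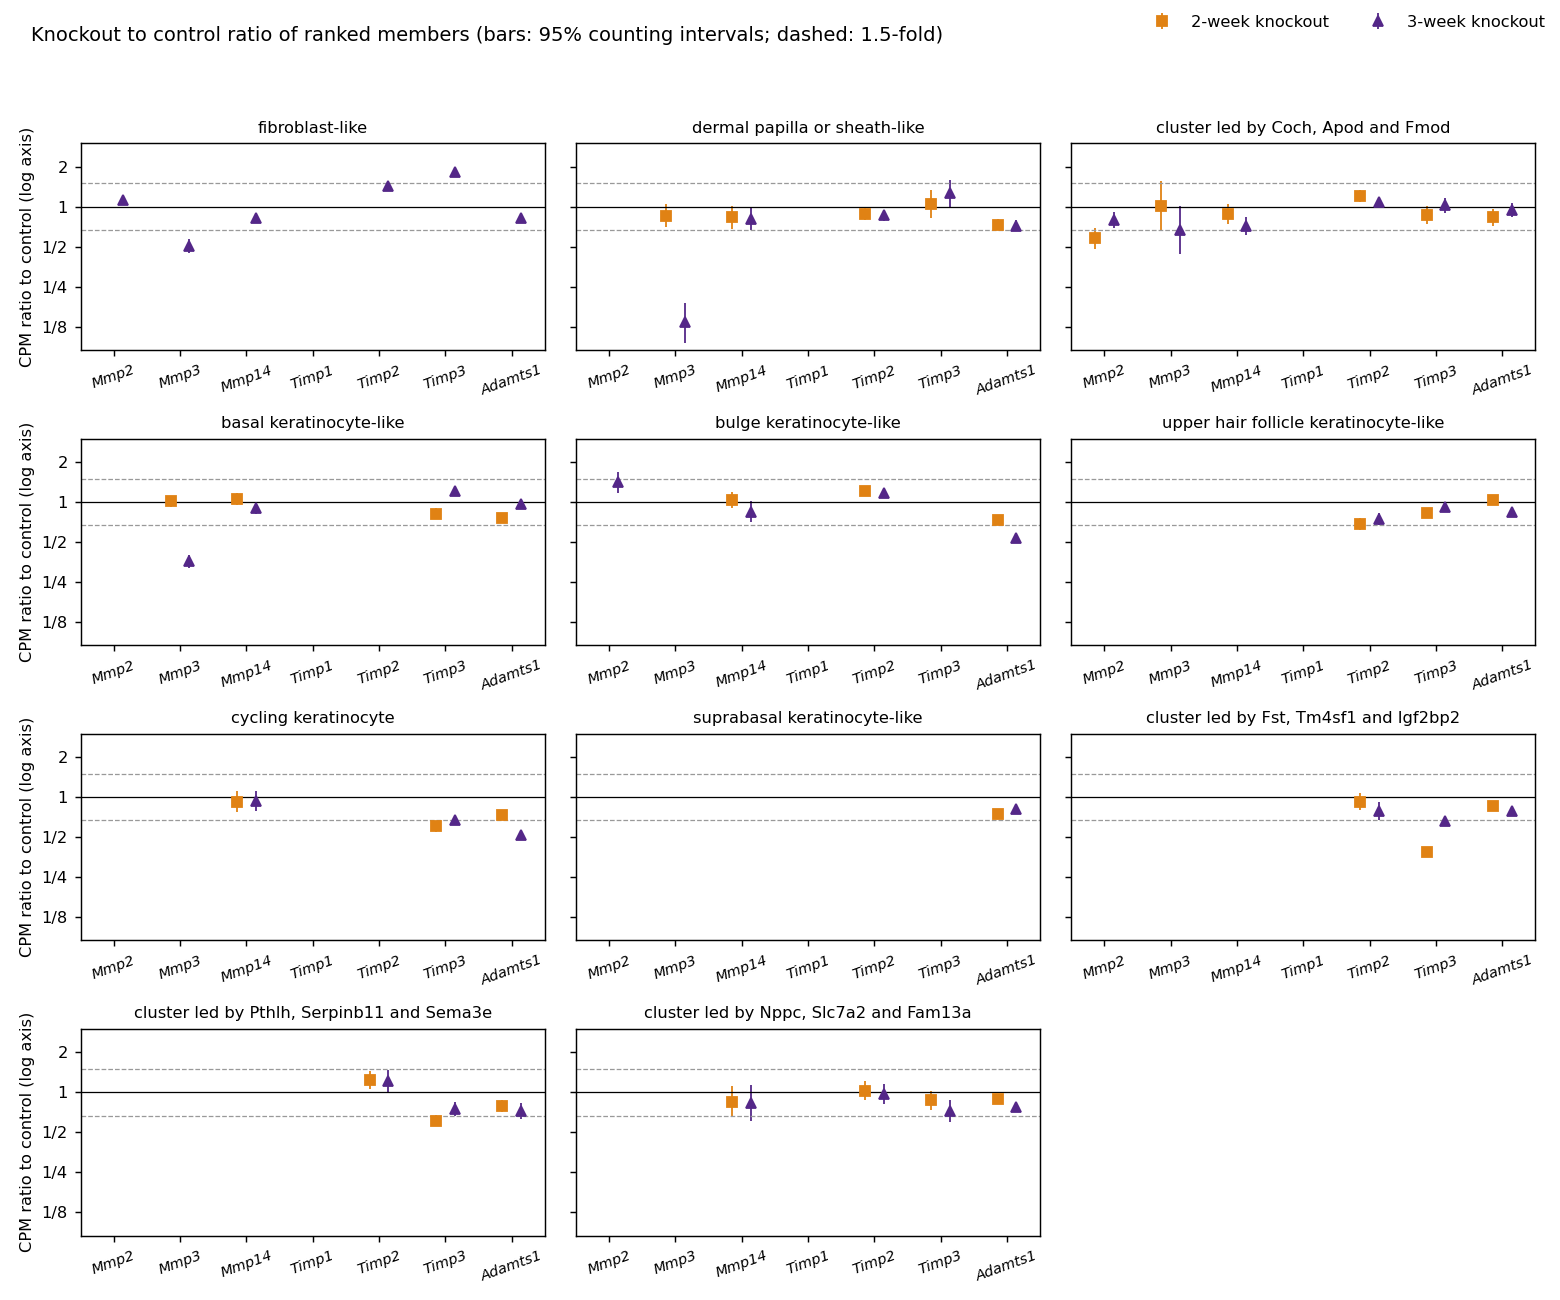
CPM of each ranked gene in a knockout divided by its CPM in the control, on a log axis, for 11 classes; bars are exact 95% counting intervals and dashed lines mark 1.5-fold. The fibroblast-like panel has no 2-week values because that library held 50 such cells, Mmp3 at 3 weeks is the lowest ratio in the fibroblast-like, papilla-like and basal-like panels, and Timp3 at 2 weeks is the lowest in the panel of the cluster led by Fst (0.387).

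In fibroblast-like cells of the 3-week knockout Timp3 was higher and Mmp3 lower. Timp3 stood at 735 CPM in the control and 1351 CPM at 3 weeks, a ratio of 1.84 (95% counting interval 1.75 to 1.93). Timp2 was at 1527 and 2199 CPM, a ratio of 1.44 (1.39 to 1.49), just inside the fold. Timp1, too low to be ranked, was at 39.7 and 22.1 CPM, a ratio of 0.558 (0.418 to 0.741). Mmp3 was at 247 and 125 CPM, a ratio of 0.507 (0.451 to 0.569), and 1 cell held 112 of the 475 UMIs at 3 weeks. The activating pair differed little: Mmp2 had a ratio of 1.12 and Mmp14 of 0.825, with Adamts1 at 0.821. Of 6 ranked members 1 was past the fold upward and 1 downward, where 11.5% and 5.83% of all 3104 ranked genes were. The members' median log2 ratio was -0.05 beside 0.12 over all ranked genes. After thinning to 2000 UMIs, 57.7% of control, 60.4% of 2-week and 75.8% of 3-week fibroblast-like cells had a Timp3 UMI, and T or natural killer-like cells had 1.55%, 6.17% and 0.735%. Without thinning the fibroblast shares were 87.9%, 84% and 90.5%, at median depths of 9813, 6096.5 and 6362 UMIs.

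Lists of related genes in the same cells differed in both directions. The list of inhibitors had 1 ranked gene, Reck, a membrane-anchored inhibitor of metalloproteinases, which was higher at 123, 128 and 204 CPM in control, 2-week and 3-week cells. Adamts2, which trims procollagen, was at 1076, 851 and 555 CPM and Adamts4, an aggrecanase, at 101, 59.4 and 58.2 CPM. These were the 2 lower of 4 ranked Adamts genes, with Adamts5 at 315, 422 and 247 CPM. Of the matrix substrates 6 of 14 were lower and 1 higher, with Col1a1 at 27812, 21936 and 10250 CPM and Dcn at 15210, 15770 and 24548 CPM. Of 7 inflammatory fibroblast genes 5 were lower and none higher, with Ccl2 at 1564, 735 and 503 CPM. The immediate early genes went the other way, with 11 of 15 higher and 1 lower, and medians of 0.81 for the list and 0.12 for all ranked genes. Fos stood at 1859, 9081 and 6129 CPM, and the part of these transcripts in the members' values was not tested. These class values mix parts of the class that differ in Fos, as described next.

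The fibroblast-like class was itself mixed in a way that followed the libraries. At a finer clustering it split into a first part led by Dcn, Lum and Col1a2, with 107 control, 40 2-week and 566 3-week cells, and a second led by Col1a1, Col1a2 and Col3a1, with 207, 10 and 13 cells. This split was looked at after the values of the whole class were seen. A part that is almost all from 1 library may be that library rather than a kind of fibroblast. The parts differed in immediate early transcripts within the control, with Fos at 5763 CPM in the first and 226 CPM in the second. In the first part Fos stood at 5763 CPM in the control and 6280 CPM at 3 weeks, and Jun at 4702 and 3595 CPM. Egr1 was at 5109 and 5810 CPM there, and Fosb at 5488 and 5034 CPM. Fos thus differed far less within the first part than over the whole class. Timp3 in the first part was at 566 and 1355 CPM, a ratio of 2.40 (2.19 to 2.63), and Timp2 at 1446 and 2212 CPM, a ratio of 1.53 (1.44 to 1.62). Mmp3 was at 204 and 117 CPM, a ratio of 0.574 (0.483 to 0.684). Timp3, Timp2 and Mmp3 were the 3 of 6 ranked members past the fold there. In the 40 2-week cells of this part, too few for a ratio, Timp3 was at 898 CPM and Mmp3 at 453 CPM. Of the 116 Mmp3 UMIs in all 50 2-week fibroblast-like cells, the 3 highest cells held 31, 20 and 13. The 2-week level of Mmp3 thus rests on few cells, and whether it differed from the control was not tested.

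**Figure D3:**
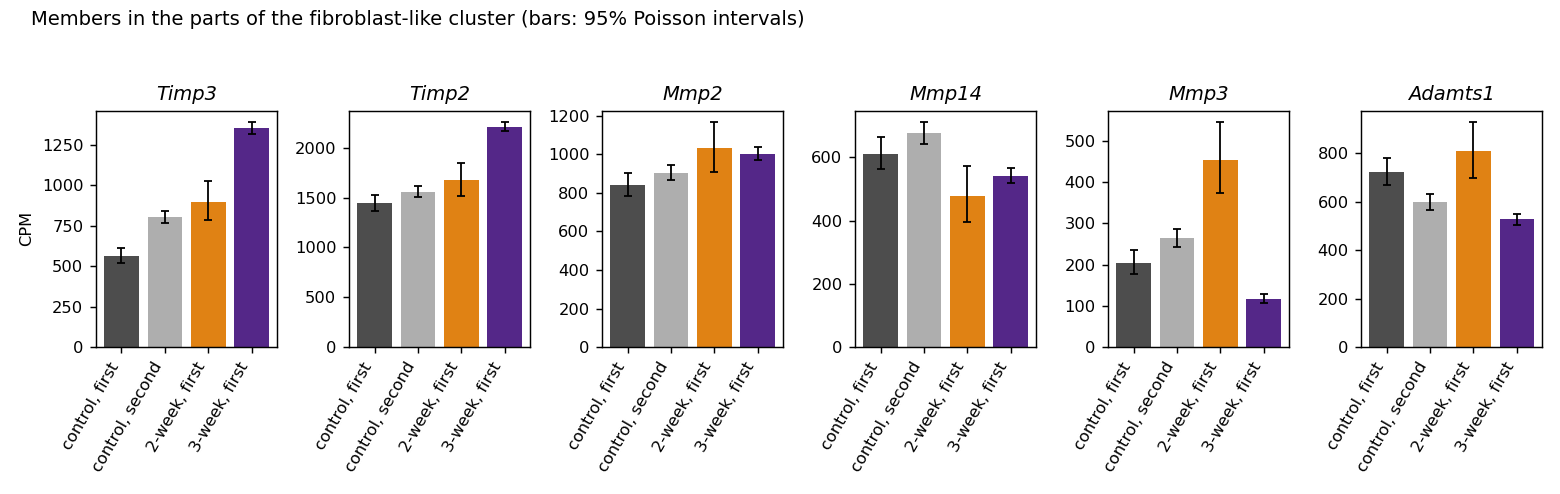
CPM of 6 members in the first and second part of the fibroblast-like cluster, by library, with exact Poisson 95% intervals; parts with fewer than 20 cells in a library are left out. Timp3 in the first part runs from 566 CPM in the control to 1355 CPM in the 3-week knockout, and Mmp3 is lowest in the 3-week knockout.

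In dermal papilla or sheath-like cells the low value was again Mmp3 at 3 weeks. It had 192 UMIs in 411 control cells, 215 in 460 2-week cells and 43 in 850 3-week cells, or 85.7, 73.6 and 11.7 CPM. The control and the 2-week knockout overlapped (ratio 0.858, 0.703 to 1.05), and the 3-week value lay apart (ratio 0.136, 0.0953 to 0.190). Cells with an Mmp3 UMI made up 5.11% (3.19% to 7.71%, exact Clopper-Pearson), 3.04% (1.67% to 5.05%) and 0.706% (0.260% to 1.53%). With 5 or more UMIs there were 13, 9 and 3 cells, and 1 cell held 22 of the 43 UMIs at 3 weeks, so the ratio rests on few cells. After thinning the shares were 3.75%, 1.59% and 0.520%, with 11, 20 and 81 cells left out. Adamts1 was lower in both knockouts and within the fold, at 369, 271 and 266 CPM.
At 2 weeks none of 5 ranked members was past the fold in papilla-like cells, where 3.66% of 3116 ranked genes were higher and 6.07% lower. At 3 weeks Mmp3 was the 1 of 5 lower and none was higher, where the shares over 3249 genes were 10.4% and 7.85%. Immediate early genes were higher in both comparisons, 9 of 15 at 2 weeks and 12 of 15 at 3 weeks with 1 lower. Fos stood at 2434, 8366 and 6503 CPM, and its part in the Mmp3 values was not tested. The adhesion receptor Cd44, known to anchor metalloproteinases at the cell surface, was at 683, 276 and 173 CPM. Vcan, the versican that Adamts1 cleaves, was at 460, 398 and 208 CPM, and Adamts4 at 97.3, 43.1 and 42.5 CPM.

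**Figure D4:**
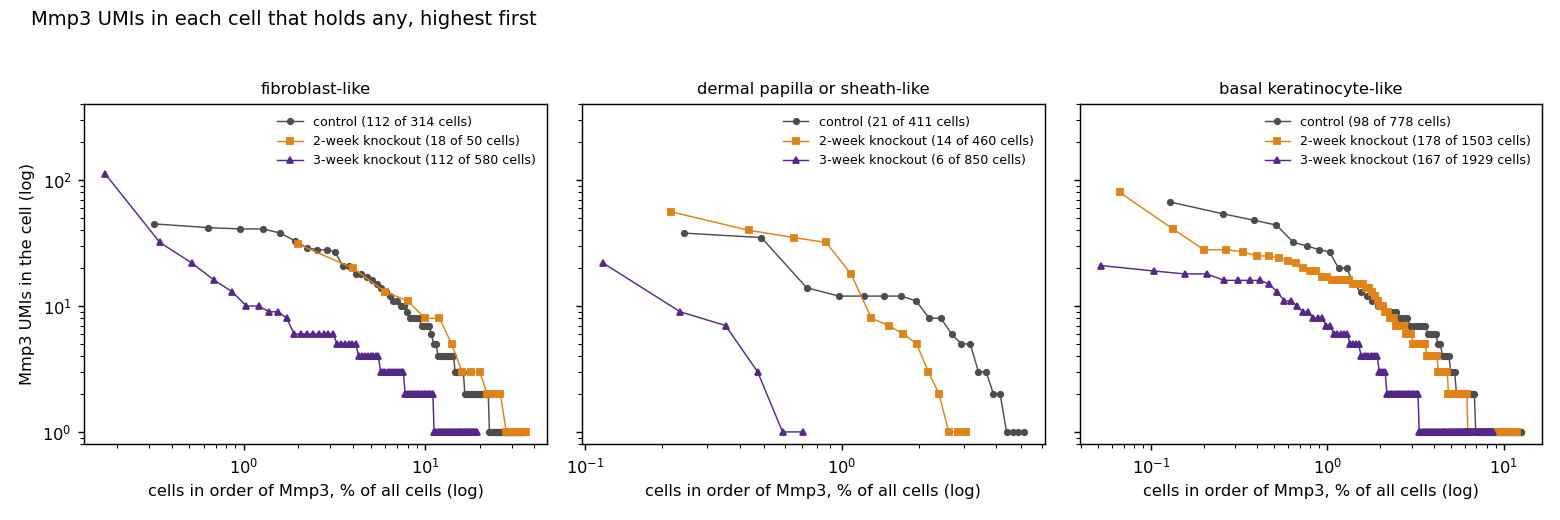
Mmp3 UMIs in every cell that held any, from the highest cell down, against the cell's rank as a percent of all cells of that class and library; both axes are log. The 3-week curve lies below the other 2 in papilla-like and basal-like cells, where it starts at 22 and 21 UMIs, and its single highest fibroblast-like cell holds 112.

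Basal keratinocyte-like cells belong to the targeted epithelium, and here Mmp3 was low at 3 weeks together with its neighbours on chromosome 9. Mmp3 was at 56.0, 56.4 and 19.98 CPM from 662, 975 and 498 UMIs. Over the whole class the 2-week value matched the control to within counting error (ratio 1.01, 0.913 to 1.12). The 3-week ratio was 0.357 (0.317 to 0.402). Mmp10, a second stromelysin, was at 15, 14.7 and 5.17 CPM, a 3-week ratio of 0.344 (0.272 to 0.434). Mmp13, a collagenase, was at 20.9, 20.5 and 4.49 CPM, a 3-week ratio of 0.215 (0.171 to 0.270). Mmp10 and Mmp13 lay below the 50 CPM needed to be ranked. These are the 3 genes whose bases are shown above, each with an AP-1 and a TATAAA match. The remaining metalloproteinase genes of the stretch were not searched for these letters. The part of the letters in the 3-week values was not tested.
Nearly all of this signal came from 1 of the 2 basal-like clusters, led by Epgn, Tslp and Nrg1. In it Mmp3 was at 60.7, 71.2 and 25.1 CPM, Mmp10 at 16.7, 19.1 and 6.82 CPM and Mmp13 at 23.3, 27.2 and 6.07 CPM. The control and 2-week intervals of Mmp3 did not meet in this cluster (56.1 to 65.6 and 66.7 to 76), unlike over the whole class. Those intervals leave out the spread from cell to cell. The other basal-like cluster, led by Fbxo32, Ndufa4l2 and Tnfrsf19, had Mmp3 at 16, 11.2 and 5.41 CPM and at most 1 UMI of Mmp13 in a library. It held 120, 455 and 592 cells, beside 658, 1048 and 1337 in the first, so the class value also follows the mix of clusters. Cells with Mmp3 held the other transcripts more often: Mmp10 was found in 12.2% of 98 control basal-like cells with Mmp3 and in 4.12% of 680 without, and Mmp13 in 9.18% and 3.68%. At 2 weeks those shares were 12.4% and 2.94% for Mmp10 and 11.2% and 2.49% for Mmp13, and at 3 weeks 5.39% and 1.53% and 3.59% and 1.14%. Cells with Mmp3 were somewhat deeper, with medians of 15837, 12556.5 and 13959 UMIs beside 14777.5, 11060 and 12336, and the part of depth in these shares was not tested.
The 5 fibroblast genes stood in basal-like cells at 0.0294%, 0.00894% and 0.0320% of their fibroblast level, and Mmp3 at 22.7%, 15.5% and 16.0% of its own. None of 4 ranked members was past the fold at 2 weeks, where 3.00% of 2803 ranked genes were higher and 5.10% lower. At 3 weeks 1 of 4, Mmp3, was lower and none higher, where 13.0% and 4.49% of 2826 genes were. Mmp14 was level at 51.2, 53.5 and 46.1 CPM, Timp3 stood at 72.2, 59.0 and 87.1 CPM and Adamts1 at 261, 197 and 252 CPM. Immediate early genes were higher at 3 weeks in 10 of 15 and lower in 1, with Jun at 2378, 2783 and 3916 CPM, and their part in the Mmp3 values was not tested. Of 5 ranked activators and cofactors 4 were lower at 3 weeks, with Cd44 at 1073, 734 and 658 CPM and Plaur, the urokinase receptor, at 78.4, 42.9 and 24.0 CPM.

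In bulge keratinocyte-like cells, the stem cell region of the resting follicle, the gene that differed was Adamts1. It was at 1023 CPM in the control, 753 CPM at 2 weeks and 552 CPM at 3 weeks, from 4505, 15015 and 2824 UMIs. The 3 intervals did not meet, with ratios of 0.736 (0.712 to 0.761) and 0.540 (0.515 to 0.566). The main cluster of the class gave 1126, 859 and 637 CPM, and the cluster led by Ccer2, Lgr5 and Slc6a6 gave 1453, 764 and 926 CPM. The other 2 clusters ran otherwise, at 370, 393 and 411 CPM and at 57.3, 189 and 87.0 CPM. After thinning, 50%, 44% and 32.4% of bulge-like cells had an Adamts1 UMI, and T or natural killer-like cells had 3.11%, 1.23% and 0.735%. Without thinning they were 63.9%, 58.5% and 43.6% in bulge-like cells, at median depths of 8023, 6418.5 and 5410 UMIs, and thinning left out 21, 197 and 97 of them. Timp2 was at 262, 316 and 307 CPM, Mmp14 at 56.3, 57.8 and 47.5 CPM and Mmp2 at 44.95, 36.9 and 63.3 CPM.
None of 3 ranked members was past the fold in bulge-like cells at 2 weeks, where 2.70% of 2705 ranked genes were higher and 5.43% lower. At 3 weeks 1 of 4 was lower and none higher, where 14.5% and 5.90% of 2781 genes were. Immediate early genes were high in this class in every library and differed less than elsewhere: none of 16 was higher, and 1 and 2 were lower, with Fos at 8531, 12430 and 11660 CPM. Ptgs2, the inducible prostaglandin synthase, was at 755, 454 and 175 CPM and Cd44 at 459, 244 and 145 CPM. Over all clusters in which Adamts1 reached 50 CPM it was lower than the control in 14 of 24 at 2 weeks and in 18 of 23 at 3 weeks, with median ratios of 0.874 and 0.821. The same count was not made for all genes, so whether it is particular to Adamts1 was not tested. In bulge-like cells the median log2 ratio of all ranked genes was itself -0.07 at 2 weeks and -0.13 at 3 weeks. Cycling keratinocytes had 727, 531 and 377 CPM of Adamts1, a 3-week ratio of 0.519 (0.490 to 0.549). It was the 1 of 3 ranked members past the fold there at 3 weeks, where 9.32% of 3186 ranked genes were lower and 4.17% higher.

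Timp3 was low at 2 weeks in several epithelial groups outside the bulge. In the cluster led by Fst, Tm4sf1 and Igf2bp2 it was at 384 CPM in the control, 149 CPM at 2 weeks and 254 CPM at 3 weeks. The 2-week ratio was 0.387 (0.355 to 0.422) and the 3-week ratio 0.661 (0.616 to 0.709), so the 2-week library was the lowest. Timp3 was the 1 of 3 ranked members past the fold in either comparison. At 2 weeks 2.17% of 2852 ranked genes were lower there and 1.79% higher, and at 3 weeks 9.86% of 2900 were lower and 2.79% higher.
Cycling keratinocytes had Timp3 at 315, 190 and 213 CPM, a 2-week ratio of 0.602 (0.549 to 0.659) and a 3-week ratio of 0.675 (0.622 to 0.732), inside the fold at 3 weeks. At 2 weeks it was the 1 of 3 ranked members past the fold, where 4.50% of 3175 ranked genes were lower and 2.74% higher. The cluster led by Pthlh, Serpinb11 and Sema3e had 568, 347 and 427 CPM, a 2-week ratio of 0.612 (0.557 to 0.672) and a 3-week ratio of 0.752 (0.666 to 0.848). Timp3 was the 1 of 3 ranked members past the fold in it at 2 weeks, where 6.81% of 2950 ranked genes were lower and 3.93% higher, and none was at 3 weeks, where 15.3% of 3027 were lower and 7.96% higher. Over all clusters in which Timp3 reached 50 CPM it was lower than the control in 14 of 20 at 2 weeks and in 13 of 21 at 3 weeks. This count, too, was not made for all genes.
None of 4 ranked members was past the fold in the cluster led by Nppc, Slc7a2 and Fam13a, where 3.89% of 2672 ranked genes were lower and 2.69% higher at 2 weeks, and 16.1% of 2762 lower and 6.34% higher at 3 weeks. In suprabasal keratinocyte-like cells Adamts1 was the only ranked member, at 137, 103 and 112 CPM, and stayed within the fold. There 5.99% of 2807 ranked genes were lower and 2.35% higher at 2 weeks, and 10.0% of 2845 lower and 3.73% higher at 3 weeks.

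In the Coch, Apod and Fmod cluster Mmp2 was at 461, 268 and 368 CPM. It was the 1 of 6 ranked members past the fold at 2 weeks, downward (ratio 0.581, 0.486 to 0.692), where 9.98% of 3298 ranked genes were lower and 9.64% higher. At 3 weeks none of 6 was past the fold there, where 11.3% of 3359 ranked genes were higher and 9.82% lower. Basal keratinocyte markers in that cluster summed to 1675, 3032 and 4894 CPM and fibroblast markers to 35525, 23506 and 22039 CPM, and their part in the Mmp2 values was not tested. In upper hair follicle-like cells none of 3 ranked members was past the fold in either comparison. The shares over all ranked genes there were 4.45% higher and 7.04% lower at 2 weeks, and 3.31% higher and 10.2% lower at 3 weeks.
Timp3 in upper hair follicle-like cells depended on how its clusters were weighed. It was at 231, 190 and 211 CPM over all cells of the class. The cluster led by Klk7, Grhl3 and Sprr1a, which had 76, 33 and 1 cells, went from 348 CPM in the control to 1228 CPM at 2 weeks, and with clusters weighed equally the 2-week log2 ratio was 0.91 instead of -0.28.

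The number of inhibitor UMIs (Timp1, Timp2 and Timp3) for each metalloproteinase UMI (Mmp2, Mmp3 and Mmp14) is a ratio within a library and does not depend on scaling. It counts UMIs, and whether these genes are captured equally well was not checked. The measure was added after the levels were seen, so the differences in it follow those of the single genes. Fibroblast-like cells had 1.29 inhibitor UMIs for each protease UMI in the control (1.24 to 1.33), 1.32 at 2 weeks (1.19 to 1.47) and 2.15 at 3 weeks (2.08 to 2.21). In the first part of that cluster the values were 1.23, 1.31 and 2.16. Papilla-like cells had 1.84, 1.99 and 3.34, and basal-like cells 0.708, 0.574 and 1.30. In these 3 classes the 3-week value was the highest and its interval met neither of the others. Mmp3, which lay in few cells, gave 662 of the 1316 protease UMIs of basal-like cells in the control. It gave 975 of 1949 at 2 weeks and 498 of 1755 at 3 weeks, so the basal-like values rest largely on it. Other epithelial classes had their highest ratio in the control: the cluster led by Fst, Tm4sf1 and Igf2bp2 had 8.90, 4.60 and 6.37, cycling keratinocytes 4.25, 2.37 and 3.13, and sebaceous gland-like cells 15.4 in the control and 7.57 at 3 weeks. The control interval met neither knockout's in these. Suprabasal-like cells had 1.99, 1.32 and 2.06 and bulge-like cells 2.94, 3.77 and 3.15, with only the 2-week value apart. The Coch, Apod and Fmod cluster had 1.53, 2.24 and 2.11, and upper hair follicle-like cells 8.56, 8.09 and 7.74 with overlapping intervals. Blood endothelial-like cells, with Timp3 and 26, 16 and 32 UMIs of the 3 proteases, had 33.8, 55.8 and 31.2.

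**Figure D5:**
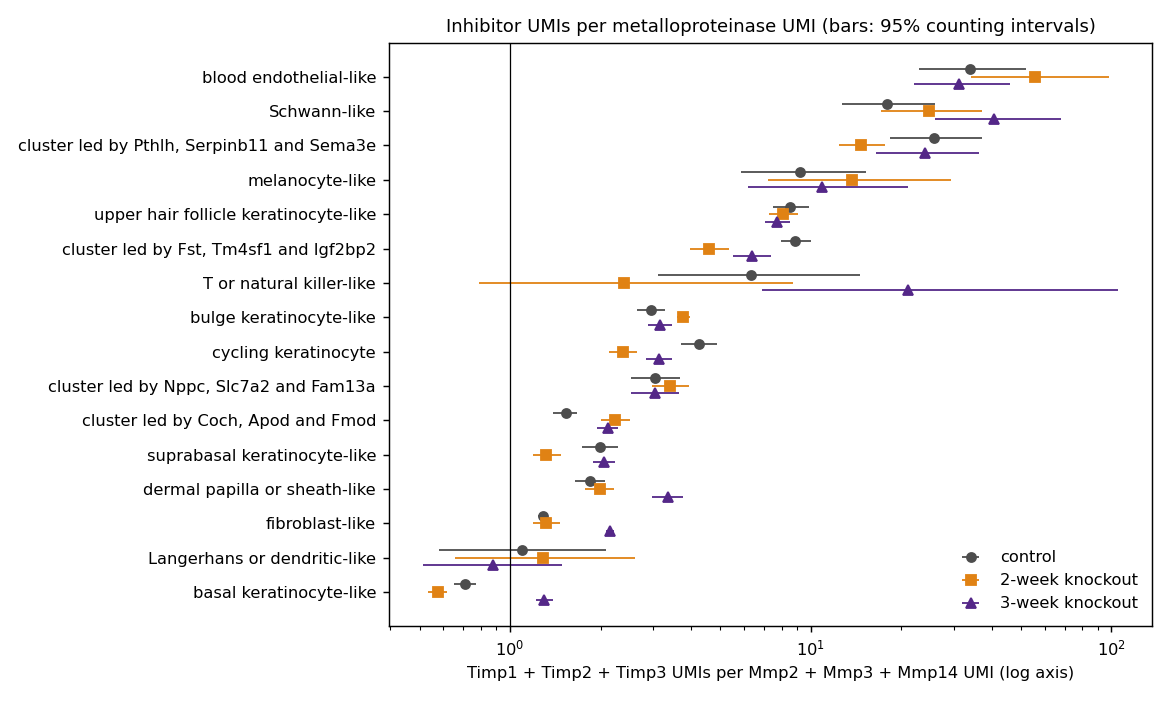
Summed Timp1, Timp2 and Timp3 UMIs for each UMI of Mmp2, Mmp3 and Mmp14, on a log axis, for the classes with at least 20 cells in every library; bars are exact 95% counting intervals and the vertical line marks equal numbers. Basal-like cells lie below 1 in the control and 2-week knockout (0.708 and 0.574) and above it at 3 weeks (1.30), values that rest largely on Mmp3 in few cells.

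The fibroblasts caught made up much of the library totals of Mmp2 and Timp2. Fibroblast-like cells gave 70.7% of all Mmp2 UMIs in the control and 67.9% at 3 weeks, and 18.7% at 2 weeks, when they were 0.522% of the cells. For Timp2 the shares were 47.7% in the control and 53.8% at 3 weeks, while at 2 weeks bulge-like cells gave 54.3%. Mmp3 UMIs came mainly from basal-like cells at 2 weeks (56.9%) and from fibroblast-like and basal-like cells in the control (41.3% and 35.2%). Adamts1 and Timp3 had no class with more than 34.7% and 26.1% of their UMIs in any library.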

How the data were processed

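The authors deposited 1 matrix per library of raw UMI counts per gene and barcode, made with Cell Ranger 6.1.2 and mm10, per the submitters' processing notes. The sources used here give no annotation release, intron setting or strand setting. Cells came from skin digested with 2.5 mg/ml collagenase I for 2 hours and then 0.25% trypsin for 7 minutes, per the labels' protocols. Barcodes with under 500 genes or at least 15% mitochondrial counts were left out, as were predicted doublets (scanpy 1.11.5, Scrublet; 2.19%, 2.88% and 3.94% of the cells that passed). The 3 libraries were clustered together without batch correction (30 components, 15 neighbours, Leiden resolution 1, leidenalg 0.10.2), holding the members and related protease lists out of the 2000 variable genes.

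Clusters took a name from at least 3 detected markers, by a rule and thresholds set after the clusters were seen, including the 3000 CPM keratin limit that left the Coch, Apod and Fmod cluster unnamed. Counts were summed by class and library and given as CPM. Levels needed 20 cells and ratios 100 cells in each library. Intervals are exact at 95% (Poisson, conditional binomial or Clopper-Pearson), cover counting error only and treat UMIs as independent. The interval and fold calls were checked on simulated counts drawn independently of one another. That check covers the arithmetic and not UMIs clustered in cells or differences between libraries. Named genes are the members, the 3 most like each, the 4 list genes with the highest control level in a class, and any other metalloproteinase reaching 50 CPM. Fos, Jun, Egr1 and Fosb in the parts of the fibroblast-like cluster, the genes leading clusters, and the chromosome 9 stretch were named after their values were seen. The members and lists were chosen with earlier results of these data known.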

Additional observations from a re-analysis of the deposited data

Results flagged for a closer look

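Timp3 at 3 weeks lay past the 1.5-fold limit in opposite directions in 2 groups of cells. It was higher in fibroblast-like cells (log2 ratio 0.87) and lower in the epithelial cluster led by Fst, Tm4sf1 and Igf2bp2 (-0.59), a difference of 1.46 on the log2 scale. With 1 library per group this difference was not tested. The lower value is close to the limit and came inside it when ribosomal, mitochondrial, Malat1 and Gm42418 UMIs were left out of the scaling, with median-ratio scaling and with 20 CPM added.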

How the results depend on the processing

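No paired analysis was possible because each group holds 1 library. Each of 77 member log2 ratios was recomputed under up to 14 alternatives. Of 838 values 729 moved by no more than the half-width of the counting interval, 109 moved further and none of the ratios past the fold changed sign. Adamts1 in bulge-like cells (main -0.44 at 2 weeks, -0.88 at 3 weeks) became -0.39 and -0.64 at Leiden resolution 2, -0.39 and -0.78 without ribosomal, mitochondrial, Malat1 and Gm42418 UMIs, and -0.37 and -0.75 with median-ratio scaling. At 2 weeks it was -0.51 with each library clustered on its own and -0.52 as a mean of per-cell CPM. At 3 weeks it was -0.97 with doublets kept and -0.54 with clusters weighed equally. That last value lies inside the 1.5-fold limit, so the 3-week call of Adamts1 in bulge-like cells depends on how clusters are weighed. Mmp3 at 3 weeks in basal-like cells (main -1.29) became -1.06 with members among the variable genes, -1.12 at resolution 2, -0.93 with 20 CPM added and -1.10 with clusters weighed equally. In papilla-like cells (main -2.45) it became -1.74 with 20 CPM added. In fibroblast-like cells at 3 weeks Mmp3 (main -0.95) became -0.71 and Timp2 and Timp3 (main 0.52 and 0.87) 0.64 and 0.97 with libraries clustered alone. Timp2 and Timp3 became 0.44 and 0.74 at resolution 0.5, and 0.40 and 0.75 with median-ratio scaling, and Mmp3 became -1.24 without its highest cell. In the first part of that cluster, an alternative chosen after seeing the data, Mmp3, Timp2 and Timp3 were -0.78, 0.61 and 1.25. The number of members past the fold was 0 instead of 1 in basal-like cells at 3 weeks at resolution 2, where Mmp3 was past the fold but, at 45 CPM in the control, below the 50 CPM needed to be ranked. At 2 weeks it was 1 instead of 0 in bulge-like cells at resolution 2, and 2 instead of 0 in basal-like cells with libraries clustered alone. In upper hair follicle-like cells it was 1 instead of 0 at 2 weeks at resolution 0.5, at resolution 2, without the filter on low counts and with clusters weighed equally, and with libraries clustered alone 2 at 2 weeks and 1 at 3 weeks. In the Coch, Apod and Fmod cluster it was 0 by per-cell CPM and 2 without the filter at 2 weeks (main 1), and 1 without the filter at 3 weeks (main 0). In the cluster led by Fst it was 0 instead of 1 at 3 weeks without ribosomal, mitochondrial, Malat1 and Gm42418 UMIs, with median-ratio scaling and with 20 CPM added. In cycling keratinocytes it was 2 instead of 1 with libraries clustered alone at both times, without the filter at 2 weeks and at resolution 2 at 3 weeks. By per-cell CPM it was 2 instead of 1 at 2 weeks and 1 instead of 0 at 3 weeks in the cluster led by Pthlh, and 2 instead of 0 at 3 weeks in that led by Nppc, where it was 1 without the filter. The cause of the other shifts was not tested.

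Depth limits what can be said of Timp1, of the 50 fibroblast-like cells at 2 weeks, and of Mmp3 in papilla-like cells, where 21, 14 and 6 cells carried it. With 1 library per group, variation between mice is unknown.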

Other observations

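Outside the classes described above, other proteases and inhibitors marked vessels and immune cells. In pericyte or vascular smooth muscle-like cells, where Adamts1 was highest, Adamts4 stood at 1205 CPM in the control and 922 CPM at 3 weeks and Adamts5 at 464 and 258 CPM. In blood endothelial-like cells Adamts9 was at 865 CPM in the control, 530 CPM at 2 weeks and 240 CPM at 3 weeks, and Timp4, the fourth tissue inhibitor, at 77.5, 4.40 and 163 CPM. That 2-week value of Timp4 rests on very few UMIs, in 96 cells with 681713 UMIs of all genes. Mmp17 reached 60.4 and 78.4 CPM in the pericyte-like cells of the control and the 3-week knockout, the latter from 21 UMIs. Schwann-like cells held Mmp15 at 91.1, 99.6 and 84.2 CPM, where none of Mmp3 was found.

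Of 20 other metalloproteinases 19 were found by symbol and 9 reached 50 CPM in some class and library. Langerhans or dendritic-like cells had Mmp9, the second gelatinase, at 156, 262 and 275 CPM. The cluster led by Lyz2, Ccl8 and Il1b had Mmp12, the macrophage elastase, at 97.7 CPM in the control and 450 CPM at 3 weeks, Mmp19 at 314 and 92.8 CPM and Mmp25 at 83.9 and 58.2 CPM, with 95 and 109 cells and too few at 2 weeks. Fibroblast-like cells had Mmp23 at 125, 113 and 119 CPM and Mmp27 at 102, 84.5 and 96.6 CPM, and papilla-like cells Mmp16 at 38.4, 59.6 and 47.1 CPM. These levels come from 1 library each and were chosen as the highest class of each gene, so they describe these libraries only.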
